A study of Mus musculus with 30 samples.

Results

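The D segments of the mouse immunoglobulin heavy chain locus (Igh) lie between the V and the JH segments, and the middle of their cluster is an array of Ighd2 (DSP2) segments. The array lies between Ighd4-1 (DQ52) and Ighd3-2 on the JH side and Ighd1-1 (DFL16.1) on the V side. Its members were chosen by position: the D segments inside the array interval of chromosome 12 with a peak of more than 1000 joins pooled over all libraries of one alignment target. This gave 9 of 25 D segments in the bone marrow libraries and 6 of 21 D segments in the cell line libraries, or 15 of the 305 V and D segments of both targets. The member with the fewest pooled joins had 3784, and the segments just outside the threshold were an Ighd5-7-like segment with 850 joins and Ighd6-2 with 718 joins in bone marrow and 665 in the cell lines.

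Igh is assembled by the RAG endonuclease, which cuts beside recombination signals made of a heptamer, a spacer and a nonamer. D segments join a JH segment first, and a V segment then joins the DJH unit. A D segment carries a signal with a spacer of 12 bases on each side, so it can in principle join by deletion or by inversion, and deletional joining is known to prevail. CBE1 and CBE2 are CTCF-binding elements of the control region between the V and the D segments, and the CBEs at the other end of Igh lie beyond the constant regions. WAPL releases cohesin from chromatin, and cohesin is known to bring distant Igh segments to the RAG-bound JH region.

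Joins were mapped by HTGTS-V(D)J-seq: a primer at JH4, the bait, starts amplification of genomic DNA, and the read shows the segment joined to JH4. Each of 10 groups had 3 libraries. Bone marrow pro-B cells (B220+IgM-CD43+) of 129SV mice carried CBE1&2-/-, CBE1-/-, CBE1inv/inv, CBE2-/- or CBE2inv/inv (in the plots CBE12mut, CBE1mut, CBE1inv, CBE2mut and CBE2inv), and WT mice were the controls. The v-Abl pro-B line was C57BL/6, and all of its groups shared RAG1-/-, an Emu-Bcl2 transgene, a WAPL degron and a single Igh allele, with RAG1/2 returned by retrovirus. The 3CBEdel cells also lacked 3IghCBEs, and the WT cells did not. DoxIAA cells had 3 µM STI-571 for 4 days, the last 3 of them also with 150 µM IAA and 2 µg/mL Dox, and untreated cells had 3 µM STI-571 for 4 days alone. STI-571 arrests v-Abl cells and lets endogenous recombination proceed, and IAA is the auxin that triggers loss of a degron-tagged protein. The cell lines differ from bone marrow in strain, in Bcl2 and in retroviral RAG, and the labels give no age of the mice. The labels do not say whether libraries of a group came from separate mice or cultures, so p-values measure the spread between these libraries only. Genomic DNA carries no expression, so the cell types could not be checked against markers, and in bulk DNA a different mix of cells and a different rate of joining per cell cannot be told apart.

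The sequences show how closely the members resemble each other and which of them differ. In the C57BL/6 members below (mm9, minus strand of chromosome 12), the D is in capitals between its 5′ and its 3′ signal, and Ighd1-1 from the V end of the cluster is shown for comparison.
Ighd2-8: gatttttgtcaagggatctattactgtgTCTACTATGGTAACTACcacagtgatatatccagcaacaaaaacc
Ighd2-7: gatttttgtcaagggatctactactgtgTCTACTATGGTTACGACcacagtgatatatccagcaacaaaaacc
Ighd2-5: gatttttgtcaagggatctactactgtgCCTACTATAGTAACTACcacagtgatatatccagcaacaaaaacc
Ighd2-4: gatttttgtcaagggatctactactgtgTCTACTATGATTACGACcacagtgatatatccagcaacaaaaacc
Ighd2-3: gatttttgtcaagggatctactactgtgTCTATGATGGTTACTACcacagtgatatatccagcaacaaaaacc
Ighd1-1: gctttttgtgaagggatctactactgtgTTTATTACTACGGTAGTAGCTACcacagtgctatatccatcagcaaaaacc

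Ighd2-8 is the member nearest to JH (chr12:114689062-114689078), followed by Ighd2-7 (chr12:114694931-114694947), Ighd2-6 (chr12:114699580-114699596), Ighd2-5 (chr12:114704238-114704254), Ighd2-4 (chr12:114708905-114708921) and Ighd2-3 (chr12:114713611-114713627). Ighd2-6 has the same D and signals as Ighd2-5, and these members are identical over the first 130 bases counted from the 3′ end of the D. All 6 share a single 3′ signal, which is the one used for joining by deletion. The 5′ signal is common to 5 of 6, and Ighd2-8 carries C21T in its spacer (the base of the common signal comes first, positions count from 1 at the 5′ end of the signal).

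The bone marrow members are called m1 to m9 from the JH side, since the alignment target joins 129 sequence to mm9 and carries no Ighd2 names. Their D and 5′ signal were read as the consensus of the joins themselves, with at least 93.1% of the reads behind each base, and the 3′ signal is lost in a deletional join. Of the 9, the members with a D or a 5′ signal that C57BL/6 lacks are printed here, since these set the 129 array apart.
m1: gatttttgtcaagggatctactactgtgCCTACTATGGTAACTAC
m2: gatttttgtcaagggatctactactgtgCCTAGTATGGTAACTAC
m4: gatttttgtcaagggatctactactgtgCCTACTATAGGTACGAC
m6: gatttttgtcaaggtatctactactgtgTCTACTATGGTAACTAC
m7: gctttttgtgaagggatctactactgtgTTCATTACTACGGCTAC

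The D of m6 equals that of Ighd2-8, m3 and m5 both carry the D of Ighd2-4, m8 that of Ighd2-7 and m9 that of Ighd2-3, so that 4 D sequences are shared between the strains. The common 5′ signal was found in 7 of 9 bone marrow members. The exceptions were m6, with G15T in the spacer, and m7, with A2C in the nonamer and C10G in the spacer. The 5′ signal of m7 was that of Ighd1-1 without a mismatch, its D differed from the other members at 9 to 11 positions, and its 5′ flank was 77% identical to that of Ighd1-1 and 57% to 69% identical to those of the other members. By sequence m7 therefore goes against the family name, and it is a member by position only. In the coordinates of the alignment target, m1 starts at 114690286 of chromosome 12, m2 at 114695747, m3 at 114700407, m4 at 114705399, m5 at 114710077, m6 at 114714725, m7 at 114719358, m8 at 114723458 and m9 at 114727777.

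The bone marrow libraries held 11105 to 98682 junctions with 4353 to 41374 joins to members, and the v-Abl libraries 13180 to 175957 junctions with 6077 to 42007 joins to members. V joins took 84.7% to 87.8% of all V and D joins in CBE1&2-/-, 71.6% to 73.5% in CBE1-/-, 45.5% to 48.3% in CBE1inv/inv, 40.4% to 55.1% in CBE2-/-, 40.2% to 50.0% in CBE2inv/inv and 30.4% to 36.8% in WT. The read names show that the CBE2-/- and CBE2inv/inv libraries came from another sequencing run than all other bone marrow libraries, so run and genotype cannot be told apart where they are set against WT. Reads repeating the sequence of another read made up 19.5% to 43.9% of these libraries and 11.96% to 15.1% of the WT libraries. In the v-Abl line such reads made up 52.1% to 53.2% in untreated and 33.8% to 38.7% in DoxIAA WT cells. They made up 31.7% to 51.8% in untreated and 18.4% to 38.5% in DoxIAA 3CBEdel cells.

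Within the D joins, the array members of WT bone marrow fell into 2 sets that did not overlap between libraries. The higher set was m9 with 10.1% ± 0.548, m4 with 9.85% ± 0.302, m2 with 9.04% ± 1.16 and m6 with 8.85% ± 0.250 of the D joins (SD, n = 3). The lower set was m7 with 6.80% ± 0.664, m5 with 6.67% ± 0.359, m1 with 6.36% ± 0.390, m3 with 6.11% ± 0.551 and m8 with 5.36% ± 0.139. Within each set every member overlapped its neighbour in this order, so the order inside the sets is not resolved. Neither set was confined to one end of the array. The members m3 and m5 have the same D and are identical over 45 bases from its 3′ end. Their 1st percentile of aligned length in WT was 58 and 56 bp, against 52 bp for m8 and 31 or 32 bp for the other members. Reads with a short alignment were thus few there, and the shares of m3 and m5 may be lower limits.

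**Figure D1:**
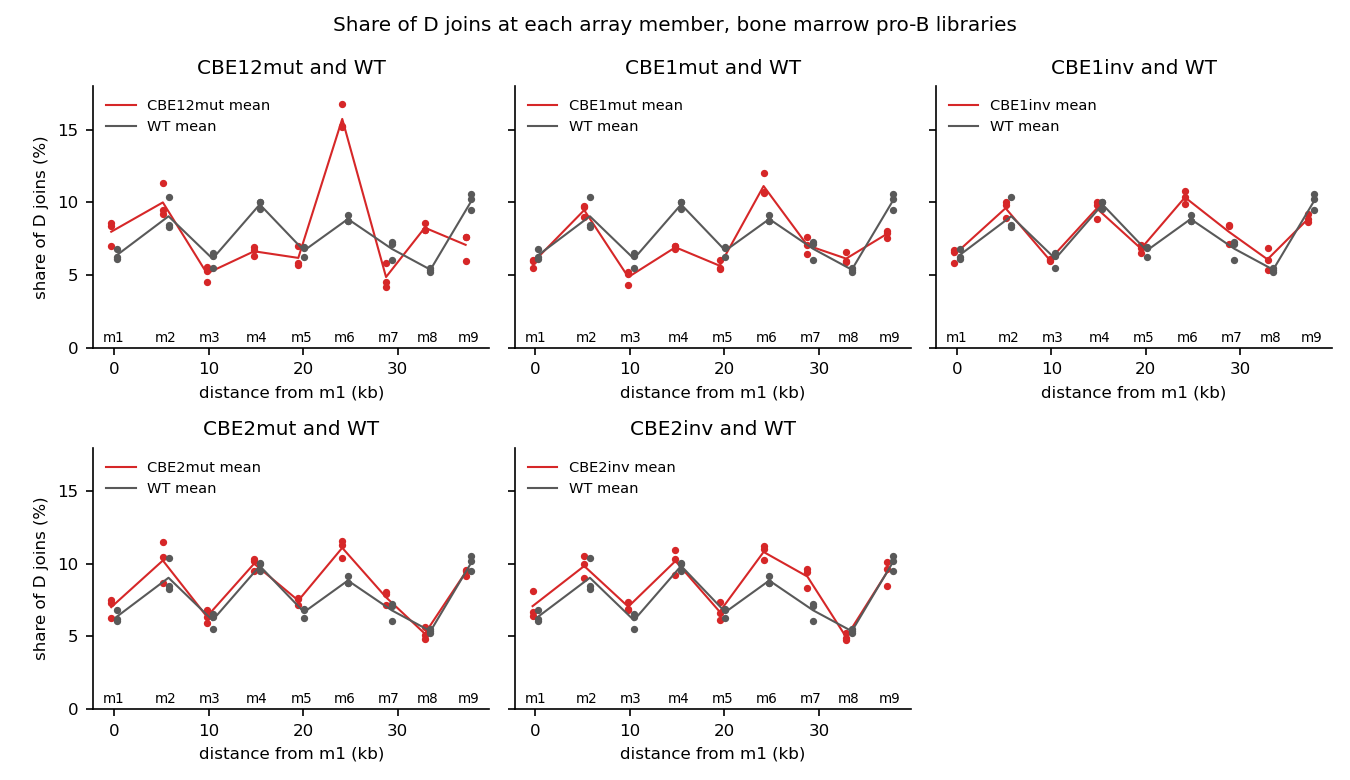
Share of D joins (%, y axis) of each bone marrow member by its distance from m1 in kb (x axis), in 5 panels, one for each genotype with WT beside it; points are libraries and lines join the means. The m6 mean stands above WT in all panels, and m4 and m9 lie below WT in the CBE1&2-/- and CBE1-/- panels.

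In CBE1&2-/- the D joins were divided differently inside the array. Shares of D joins have a fixed sum, so a call here does not separate a member's own change from that of the other D segments. Of the 9 members, m1, m6 and m8 rose as a share of D joins (m1 turned negative, at -0.12, with median-of-ratios scaling), m3, m4, m7 and m9 fell, and m2 and m5 did not pass the test, where 79.2% of all 24 D segments tested passed in either direction, 58.3% higher and 20.8% lower (limma voom, Benjamini-Hochberg over all D segments, threshold 0.05). The largest rise was that of m6, a member in the middle of the array. It took 15.2%, 16.8% and 15.2% of the D joins in the CBE1&2-/- libraries, against 8.69%, 9.13% and 8.71% in the WT libraries. Every CBE1&2-/- library lay above every WT library, and the log2 fold change was 0.82 ± 0.07 (SE), or 1.77-fold (adjusted p = 2.82e-14, limma). For m8, near the V end, the shares were 8.08%, 8.11% and 8.56% in CBE1&2-/-, against 5.22%, 5.499% and 5.36% in WT, again without overlap, and the log2 fold change was 0.64 ± 0.10 (adjusted p = 8.79e-08). The rise of m1, the member nearest to JH, was smaller, with 8.35%, 8.57% and 6.998% in CBE1&2-/-, against 6.81%, 6.20% and 6.08% in WT.

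The members that fell included m4 and m9, which like m6 belonged to the higher set in WT. For m4, the CBE1&2-/- libraries had 6.89%, 6.30% and 6.69%, against 10.04%, 9.50% and 10.01% in WT, a log2 fold change of -0.57 ± 0.10 (adjusted p = 5.06e-06, limma). For m9, the last member before Ighd1-1, they had 7.64%, 7.63% and 5.93%, against 9.47%, 10.5% and 10.2% in WT, a change of -0.60 ± 0.10 (adjusted p = 1.11e-06). The groups did not overlap for either member. The share of m7, whose 5′ signal is that of Ighd1-1, was 5.84%, 4.19% and 4.53% in CBE1&2-/-, against 6.03%, 7.12% and 7.24% in WT, with a change of -0.51 ± 0.14 (adjusted p = 0.00144). For m3 the libraries of the groups overlapped, and its change of -0.30 ± 0.13 passed narrowly (adjusted p = 0.0267). The changes of m2 and m5, which did not pass, were 0.19 and -0.15.

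Ighd4-1 and Ighd1-1 moved more than the members did, and Ighd3-2 did not pass. Ighd4-1, the D nearest to JH, took 16.8% of D joins in CBE1&2-/- and 5.62% in WT (3.00-fold), while Ighd1-1, the D nearest to the V segments, took 2.39% in CBE1&2-/- and 22.1% in WT (0.109-fold). Ighd3-2 took 2.47% ± 0.883 in CBE1&2-/- and 2.10% ± 0.209 in WT (log2 change 0.22, adjusted p = 0.236, limma). Of the 15 other D segments tested, 11 rose and 1 fell. The median log2 change was -0.15 over the members and 1.14 over all D segments tested. Median-of-ratios scaling shifted the members by -0.39 (median, log2): m8 then missed the threshold with 0.23 (adjusted p = 0.0527, limma), while m6 passed with 0.43 (adjusted p = 4.593e-05) and m4, m7 and m9 with -0.97, -0.90 and -0.98. With that scaling m5 passed as lower too (-0.55, adjusted p = 6.01e-05). Without CBE1&2-/- replicate 1 the rise of m1 missed the threshold (0.22, adjusted p = 0.0938). The fall of m3 missed it without WT replicate 1, WT replicate 3, CBE1&2-/- replicate 1 or CBE1&2-/- replicate 3 (adjusted p = 0.0505 to 0.200), and m2 passed it without WT replicate 1 (0.29, adjusted p = 0.00613) or CBE1&2-/- replicate 2 (0.22, adjusted p = 0.0393). The limma calls for m4, m6, m7, m8 and m9 were kept with any single library left out.

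In CBE1-/-, m6 and m8 rose and m3, m4, m5 and m9 fell, where 45.8% of D segments passed in either direction, 29.2% higher and 16.7% lower. The share of m6 was 10.7%, 10.7% and 11.98% in CBE1-/-, against 8.69%, 9.13% and 8.71% in WT, a log2 change of 0.33 ± 0.07 (adjusted p = 5.1e-05, limma). The share of m4 was 6.76%, 6.98% and 6.97% in CBE1-/-, against 10.04%, 9.50% and 10.01% in WT, a change of -0.51 ± 0.07 (adjusted p = 1.5e-07). The share of m9 was 8.03%, 7.55% and 7.90% in CBE1-/-, against 9.47%, 10.5% and 10.2% in WT, a change of -0.36 ± 0.07 (adjusted p = 5.1e-05). These 3 members were separated between the groups in every library. The changes of m3 and m5 were -0.34 ± 0.09 and -0.25 ± 0.08, and that of m8 was 0.19 ± 0.08 (adjusted p = 0.0446). The call of m8 was lost without WT replicate 1, WT replicate 3, CBE1-/- replicate 1 or CBE1-/- replicate 3 (adjusted p = 0.0523 to 0.227), and that of m5 without CBE1-/- replicate 3 (adjusted p = 0.0511). The changes of m1, m2 and m7, which did not pass, were -0.13, 0.07 and 0.05. Of the segments beside the array, Ighd4-1 rose by 0.67, and Ighd3-2 and Ighd1-1 did not pass (0.08 and -0.02). The member median was -0.13 and that of all D segments 0.35.

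Set against CBE1-/- directly, CBE1&2-/- libraries had higher shares of m1, m6 and m8 and a lower share of m7, where 45.8% of D segments passed, 37.5% higher and 8.33% lower. The log2 change was 0.49 for m6 (adjusted p = 9.5e-08, limma), 0.45 for m8 (adjusted p = 0.000255) and 0.38 for m1 (adjusted p = 0.00201). For m7 it was -0.56, with 5.84%, 4.19% and 4.53% in CBE1&2-/- and 7.61%, 7.05% and 6.44% in CBE1-/- (adjusted p = 0.00134). With median-of-ratios scaling, a shift of -0.32, m1, m6 and m8 missed the threshold here (0.07, 0.17 and 0.11, adjusted p = 0.584, 0.136 and 0.415), and m4 and m9 passed as lower (-0.39 and -0.54). Without CBE1-/- replicate 2, m9 also passed. The shares of m4, 6.63% ± 0.296 in CBE1&2-/- and 6.90% ± 0.127 in CBE1-/-, overlapped. The members that did not pass changed by 0.12 (m2), 0.03 (m3), -0.05 (m4), 0.09 (m5) and -0.24 (m9). Ighd1-1 took 2.39% of D joins in CBE1&2-/- and 21.8% in CBE1-/-, Ighd4-1 rose by 0.91, and Ighd3-2 did not pass (0.14).

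The inverted CBE1 allele keeps the element in the opposite orientation. In CBE1inv/inv, m6, m7 and m8 passed as higher and m9 as lower than WT, where 37.5% of D segments passed in either direction, 29.2% higher and 8.33% lower. The m6 shares were 10.7%, 10.4% and 9.87% in CBE1inv/inv, against 8.69%, 9.13% and 8.71% in WT, without overlap and with a log2 change of 0.22 ± 0.07 (adjusted p = 0.0103, limma). The m7 and m8 groups overlapped, with changes of 0.23 and 0.18, and m9 changed by -0.18. The changes of m1, m2, m3, m4 and m5 lay between -0.04 (m4) and 0.09 (m2) and did not pass. Ighd4-1 rose by 0.25, Ighd1-1 fell by 0.31, and Ighd3-2 did not pass (0.23, adjusted p = 0.0543, limma). The call of m7 was lost without WT replicate 1, CBE1inv/inv replicate 1 or CBE1inv/inv replicate 2, that of m8 without any library but CBE1inv/inv replicate 1, and that of m9 without WT replicate 2, WT replicate 3, CBE1inv/inv replicate 2 or CBE1inv/inv replicate 3. The members called numbered 1 without CBE1inv/inv replicate 2, 3 without CBE1inv/inv replicate 1 and 2 without any other library. With median-of-ratios scaling 0 members passed, m6 among them with 0.18 (adjusted p = 0.150). Set against CBE1-/-, the inverted allele had higher shares of m3, m4, m5 and m9, where 37.5% of D segments passed, 16.7% higher and 20.8% lower. The m4 shares were 8.84%, 9.83% and 10.05% in CBE1inv/inv and 6.76%, 6.98% and 6.97% in CBE1-/-, a log2 change of 0.47 (adjusted p = 2.2e-06), and the changes of m3, m5 and m9 were 0.32, 0.28 and 0.18 (adjusted p = 0.0470 for m9). Those of m1, m2, m6, m7 and m8 lay between -0.10 (m6) and 0.18 (m7, adjusted p = 0.0882) and did not pass. Ighd4-1 and Ighd1-1 had lower shares in CBE1inv/inv (-0.43 and -0.28), and Ighd3-2 did not pass (0.15). The call of m3 was lost without CBE1-/- replicate 2 (adjusted p = 0.0525), and that of m9 without any library but CBE1inv/inv replicate 2 (adjusted p = 0.0584 to 0.175). Without CBE1-/- replicate 1 or CBE1inv/inv replicate 3, m7 passed too.

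Of the CBE2 alleles, CBE2-/- showed 1 member higher than WT and 0 lower (limma, 4 members at unadjusted p under 0.05), where 16.7% of D segments passed in either direction. This member was again m6, with 11.3%, 11.6% and 10.4% in CBE2-/-, against 8.69%, 9.13% and 8.71% in WT (log2 change 0.29 ± 0.07, adjusted p = 0.00182). The other 8 changed by -0.11 (m9), -0.09 (m8), 0.01 (m4), 0.11 (m3), 0.14 (m7), 0.18 (m5), 0.20 (m2) and 0.20 (m1). Ighd3-2 rose by 0.90 and Ighd4-1 by 0.46, and Ighd1-1 fell by 0.81. Without WT replicate 1 m1 and m2 also passed, and m2 without CBE2-/- replicate 1, so that 3 and 2 members were then called. With median-of-ratios scaling m6 missed the threshold at 0.14 (adjusted p = 0.363). In CBE2inv/inv, m6 and m7 rose, where 20.8% of D segments passed in either direction. The m6 shares were 10.98%, 11.2% and 10.2% in CBE2inv/inv, against 8.69%, 9.13% and 8.71% in WT (0.30 ± 0.08, adjusted p = 0.00109), and the m7 shares were 9.63%, 9.43% and 8.30%, against 6.03%, 7.12% and 7.24% in WT (0.46 ± 0.09, adjusted p = 4.34e-05). The other 7 changed by -0.10 (m8), -0.07 (m9), 0.02 (m4 and m5), 0.09 (m1), 0.10 (m2) and 0.21 (m3, adjusted p = 0.0957). Ighd3-2 rose by 1.28 and Ighd4-1 by 0.56, and Ighd1-1 fell by 1.09. Neither m6 nor m7 overlapped WT, and run and genotype cannot be told apart here. Median-of-ratios scaling left m7 called (0.40) and m6 not (0.26, adjusted p = 0.0670), and m3 passed without WT replicate 3.

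Between the CBE2 alleles, sequenced in the same run, 0 members passed for CBE2inv/inv against CBE2-/- (limma, 1 member at unadjusted p under 0.05), where 4.17% of D segments passed. The log2 changes lay between -0.17 (m5) and 0.32 (m7, 9.12% ± 0.717 in CBE2inv/inv and 7.69% ± 0.484 in CBE2-/-, adjusted p = 0.0666), with standard errors of 0.08 to 0.14. Those of m1, m2, m3, m4, m6, m8 and m9 lay between -0.11 (m1) and 0.11 (m3). Ighd1-1 fell by 0.29, and Ighd4-1 (0.10) and Ighd3-2 (0.37) did not pass. Without CBE2-/- replicate 1, m7 passed with 0.36 (adjusted p = 0.0293), and so it did with median-of-ratios scaling (0.42, adjusted p = 0.0158).

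The 5 comparisons with WT share the WT libraries, and m6 was called higher in each of them. For CBE2-/- and CBE2inv/inv, sequenced in another run than WT, run and genotype cannot be told apart. The mean share of m6 was 15.7% in CBE1&2-/-, 11.1% in CBE1-/-, 10.3% in CBE1inv/inv, 11.1% in CBE2-/-, 10.8% in CBE2inv/inv and 8.85% in WT. Its log2 change was above 0 in all of them also with median-of-ratios scaling, where the calls in CBE1&2-/- and CBE1-/- (0.26, adjusted p = 0.0168, limma) held and the other 3 did not. The mean share of m4 was 6.63% in CBE1&2-/-, 6.90% in CBE1-/-, 9.57% in CBE1inv/inv, 10.01% in CBE2-/-, 10.2% in CBE2inv/inv and 9.85% in WT.

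The array as a whole took 72.5%, 73.3% and 69.4% of the D joins in CBE1&2-/-, 64.9%, 64.1% and 65.3% in CBE1-/-, 71.9%, 70.7% and 72.4% in CBE1inv/inv, 73.7%, 74.5% and 75.1% in CBE2-/-, 76.2%, 74.4% and 74.9% in CBE2inv/inv, and 69.9%, 68.8% and 68.7% in WT. CBE1-/- lay below WT in every library and CBE1inv/inv, CBE2-/- and CBE2inv/inv above it, while CBE1&2-/- overlapped WT. The differences from WT were -4.34 percentage points for CBE1-/-, 2.52 for CBE1inv/inv, 5.35 for CBE2-/- and 6.04 for CBE2inv/inv (exact two-sided permutation p = 0.1 each, the smallest that 3 against 3 libraries allow), and 2.66 for CBE1&2-/- (exact p = 0.2). CBE1&2-/- lay 7.002 points above CBE1-/- and CBE1inv/inv lay 6.87 points above it (exact p = 0.1 each). Over the 6 genotypes together the share varied more than in random relabelings of the libraries (permutation p = 1e-05, the smallest that 100000 draws can give). This test and the later ones over the 6 genotypes relabeled libraries across sequencing runs. The CBE2-/- and CBE2inv/inv libraries came from another run, so run and genotype cannot be told apart in these tests.

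As shares of D joins, the D segments on the 2 sides of the array moved in opposite directions in CBE1&2-/-. D joins numbered 8423 to 14475 per library in CBE1&2-/- and 36044 to 60256 in WT, so a higher share is not by itself a higher level per junction. D segments between JH and the array took 19.4% of D joins in CBE1&2-/- and 7.73% in WT, those beyond the array 5.73% in CBE1&2-/- and 22.6% in WT, and the 10 non-members inside the array interval 3.08% in CBE1&2-/- and 0.514% in WT. Within the array the mean distance of joins from m1 was 19.3 to 19.9 kb across the genotypes (permutation p = 0.662), with CBE1&2-/- at 19.4 kb and CBE1-/- at 19.9 kb without overlap (exact p = 0.1).

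**Figure D2:**
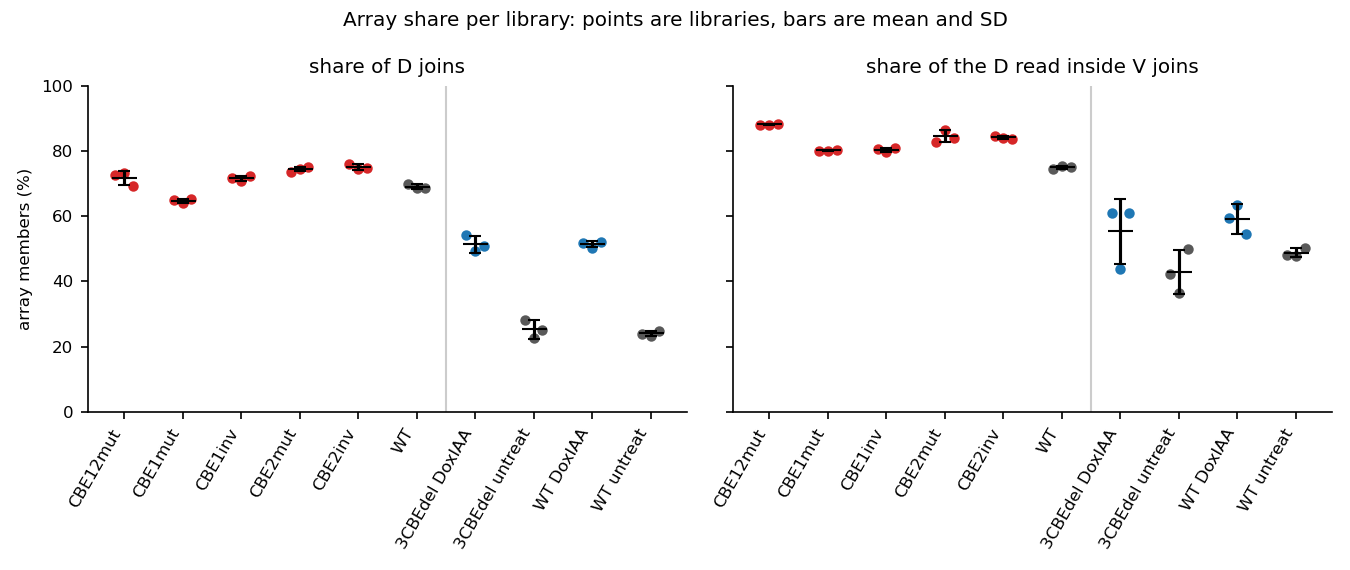
Left, share of D joins (%) that fell on array members in each library; right, share (%) of the D read inside V joins that came from array members. Points are libraries and bars give mean ± SD for each group. DoxIAA v-Abl cells average 51.4% of D joins in both genotypes, against 25.3% and 24.0% in untreated 3CBEdel and WT cells, and all 5 mutant genotypes lie above WT bone marrow in the right panel.

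As a level per 100000 junctions, the members were lower where the share of V joins was higher. All 9 were lower in CBE1&2-/- than in WT, with log2 changes from -1.46 (m6) to -2.87 (m4) that turned positive for m6 and m8 with median-of-ratios scaling, where 87% of the 162 V and D segments tested were called lower and the median over all of them was -2.01. For m6 the level was 2033 ± 222 junctions per 100000 in CBE1&2-/- and 5613 in WT. All 9 were lower in CBE1-/- too, with changes of -0.92 to -1.77, where 59.9% of segments were called lower, and all 9 were lower in CBE1&2-/- than in CBE1-/-, where 53.7% were. All 9 were higher in CBE1inv/inv than in CBE1-/- by 0.82 to 1.40, where 42.6% of segments were called higher, while with median-of-ratios scaling 0 of them passed and their changes were 0.005 (m6) to 0.58 (m4). With median-of-ratios scaling, which shifted the members by 1.95 in CBE1&2-/- and 1.003 in CBE1-/- against WT, m6 turned positive in CBE1&2-/- (0.485) and CBE1-/- (0.08), m8 in CBE1&2-/- (0.28), and 0 members passed in CBE1-/- against WT or CBE1&2-/- against CBE1-/-, where m1, m5, m6 and m8 turned positive (0.35, 0.03, 0.41 and 0.34).

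Fewer members passed on this scale for the other alleles. In CBE1inv/inv, m1, m3, m4, m5 and m9 were lower than WT, where 6.79% of segments were called lower, and the number fell to 1 without WT replicate 3 and 2 without WT replicate 1, CBE1inv/inv replicate 2 or CBE1inv/inv replicate 3. In CBE2-/-, m4, m8 and m9 were lower, where 6.79% were called lower (1 member without WT replicate 3, CBE2-/- replicate 1 or CBE2-/- replicate 2), and in CBE2inv/inv m8 and m9 were lower, where 2.47% were (0 members without CBE2inv/inv replicate 2, and 1 without WT replicate 2, WT replicate 3 or CBE2inv/inv replicate 3). In CBE2inv/inv against CBE2-/- 0 members passed (limma, 0 at unadjusted p under 0.05), where 3.7% of segments passed in either direction.

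Reads that reach a V segment carry the D between the JH4 bait and the V, which shows the array in completed VDJH joins. A D was read where a run of at least 8 bases matched it. Array members made up 88.2% ± 0.0988 of the D read inside V joins in CBE1&2-/-, 80.2% ± 0.227 in CBE1-/-, 80.4% ± 0.673 in CBE1inv/inv, 84.5% ± 1.88 in CBE2-/-, 84.2% ± 0.482 in CBE2inv/inv and 75.1% ± 0.489 in WT (SD, n = 3). No mutant library overlapped WT (exact permutation p = 0.1 for each genotype, the smallest possible, and permutation p = 1e-05 over the 6 genotypes). Here too the CBE2-/- and CBE2inv/inv libraries came from another sequencing run than WT. CBE1&2-/- lay 8.01 points above CBE1-/-. Ighd1-1 made up 2.77% of these D in CBE1&2-/-, 13.5% in CBE1-/- and 19.7% in WT.

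Members differed in how their share inside V joins compared with their share of D joins. The D of m4, recognised by its own sequence, made up 19.4% ± 0.824 of the D inside V joins in CBE1&2-/- and 17.8% ± 1.52 in WT, against 6.63% and 9.85% of the D joins in these genotypes. Across the 6 genotypes its share inside V joins was 17.3% to 19.8%, while its share of D joins was 6.63% to 10.2%. The D of m1 or m6, identical over the 16 bases from the 3′ end and counted together, showed the opposite order, with 11.1% inside V joins and 23.7% of D joins in CBE1&2-/- and 7.12% and 15.2% in WT. The D of m8 made up 3.71% inside V joins and 8.25% of D joins in CBE1&2-/-, and 4.47% and 5.36% in WT. For m9 the shares were 6.06% and 7.07% in CBE1&2-/- and 8.54% and 10.1% in WT.

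These values set different denominators side by side and were not tested against each other. A run that matched several members could not be assigned and made up 13.7% of the D inside V joins in CBE1&2-/- and 8.53% in WT, so the shares of single members inside V joins are lower limits that depend on how distinctive a D sequence is after trimming. The share of the whole array does not depend on which member a run is given to, but it covers only V joins with a readable D. These were 40148 of 63582 V joins in CBE1&2-/- replicate 1 and 19242 of 28355 in WT replicate 1. Runs that matched members and other D segments equally were left out, and only D segments with more than 1000 pooled joins were sought. The whole-array share can therefore depend on how readily each D is read after trimming.

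**Figure D3:**
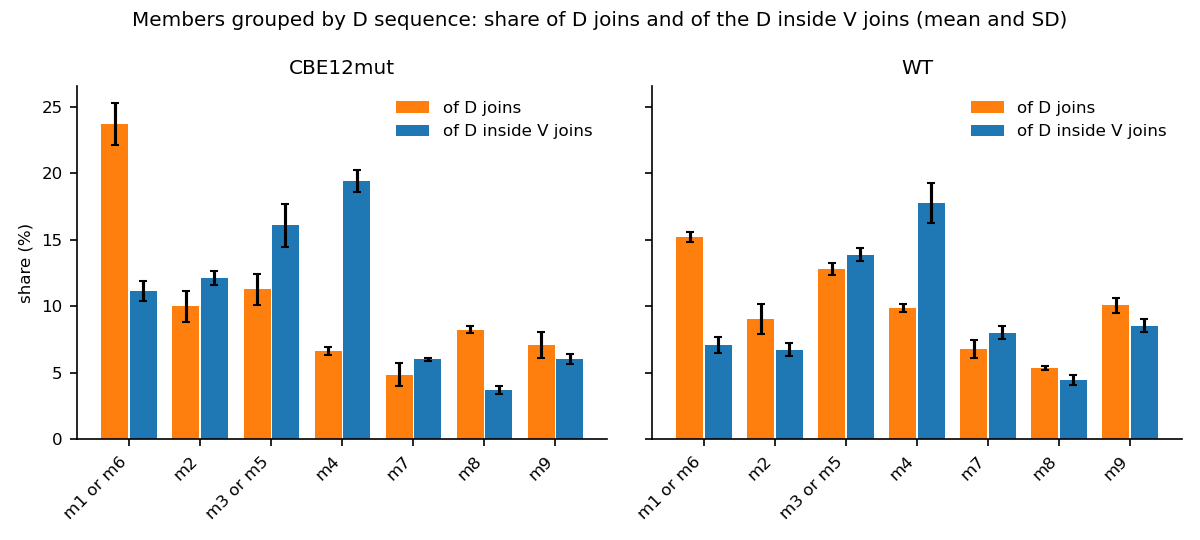
Mean share (%) of each bone marrow D sequence among D joins and among the D read inside V joins, for CBE1&2-/- and WT; error bars are SD over 3 libraries. The m4 bars inside V joins stand at 19.4% and 17.8%, above its D joins, and the bars of m1 or m6 inside V joins stand below.

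Of the array joins, a larger part lost the whole D in CBE1&2-/- than in WT. The share of deletional array joins in which the whole D was lost, so that the read runs from JH4 into sequence beyond the 17 bases of the D (a measure chosen after the joins had been seen), was 15.4%, 14.5% and 13.2% in CBE1&2-/-, against 2.83%, 3.34% and 3.599% in WT. It was 5.30%, 6.68% and 6.41% in CBE1-/-, and its mean was 4.07% ± 0.0248 in CBE1inv/inv, 2.86% ± 0.598 in CBE2-/- and 3.88% ± 0.656 in CBE2inv/inv. CBE1&2-/-, CBE1-/- and CBE1inv/inv did not overlap WT (exact permutation p = 0.1 each, the smallest possible), and the 6 genotypes differed (permutation p = 1e-05). In number, such joins were 989, 893 and 1325 of 74102, 70611 and 97033 junctions in the CBE1&2-/- libraries. They were 962, 828 and 1487 of 79560, 57970 and 89905 junctions in the WT libraries. Per junction, CBE1&2-/- and WT therefore overlapped. The mean number of bases lost, counted from the 3′ end of the D to the junction, was 6.504 ± 0.200 in CBE1&2-/-, 4.22 ± 0.253 in CBE1-/- and 3.40 ± 0.205 in WT. It includes bases beyond the D where the whole D was lost, so it partly restates that share.

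Loss of the whole D was uneven over the members. In CBE1&2-/- it was highest for m4, at 26.0% of its joins (19.6% to 29.3% over the libraries, 521 joins in all), against 4.19% (3.79% to 4.58%, 605 joins in all) in WT. It was 20.5% and 3.04% for m3, 19.1% and 2.95% for m7, 18.4% and 3.65% for m2, 17.6% and 1.74% for m1, and 17.3% and 4.18% for m5, the value of CBE1&2-/- and then that of WT. It was lowest for m9 (8.79% in CBE1&2-/- and 2.90% in WT), m6 (8.01% and 3.21%) and m8, whose 2.78% to 7.02% in CBE1&2-/- overlapped the 2.83% to 3.07% of WT. Segments outside the array showed it as well, with 27.7% in CBE1&2-/- and 11.6% in WT for Ighd4-1, 34.0% and 9.82% for Ighd3-2, and 8.04% and 2.41% for Ighd1-1.

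When only joins that keep part of the D were counted, the member changes between CBE1&2-/- and WT kept their direction and their calls. The log2 change in share of D joins was then 0.95 for m6, 0.80 for m8, -0.71 for m4 and -0.46 for m9.

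**Figure D4:**
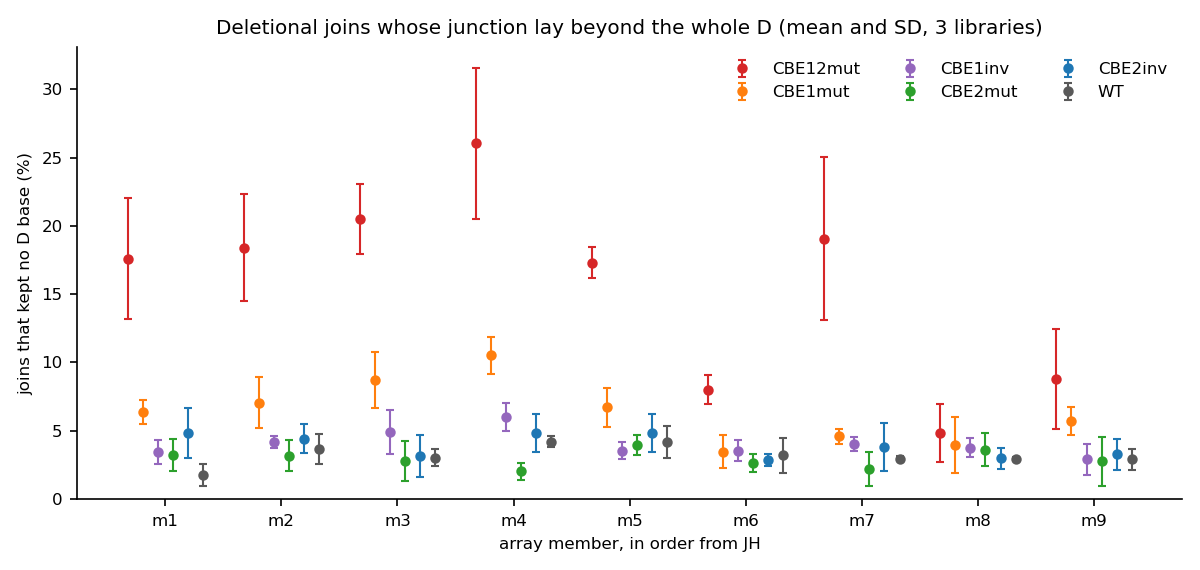
Share (%) of the joins of each bone marrow member in which the whole D was lost, by genotype; points are means and bars SD over 3 libraries. CBE1&2-/- stands above WT for all members except m8, where the libraries overlap, and m4 is highest at 26.0%.

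Joins in the inversional orientation, which use the 5′ signal printed above, were rare. They made up 0.449%, 0.437% and 0.507% of array joins in CBE1&2-/-, against 0.115%, 0.0605% and 0.147% in WT, without overlap (permutation p = 0.00182 over the 6 genotypes). These are shares of 6455, 6178 and 10052 array joins in CBE1&2-/- and of 34046, 24799 and 41374 in WT. The higher share is thus not a higher level per junction. In CBE1&2-/- inversional joins numbered 30 for m7 (1.96% of its joins), 21 for m5 (1.09%) and 0 for m8, while in WT the largest number was 56 for m9 (0.384%). Bases inserted between D and JH4 were found in 89.0% to 89.5% of array joins in each bone marrow genotype (permutation p = 0.953), and overlapping ends in 5.47% to 6.08%.

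In the v-Abl line the array was used less evenly. In untreated WT cells Ighd2-3, the member farthest from JH, took 16.0%, 15.8% and 16.8% of the D joins, and Ighd2-8, the nearest, 3.53%, 3.65% and 3.61%. Ighd2-4 averaged 3.03% ± 0.174, and Ighd2-5, Ighd2-6 and Ighd2-7 averaged 0.516% ± 0.0833, 0.387% ± 0.0228 and 0.3495% ± 0.0363 (SD, n = 3). Ighd2-5 and Ighd2-6 had few reads with a short alignment: the 1st percentile of aligned length was 129 to 131 bp there and 29 bp for Ighd2-8, Ighd2-4 and Ighd2-3, beside their identity over the first 130 bases. Among reads reaching 150 bp beyond the segment start, Ighd2-5 took 0.923% and Ighd2-6 0.720% in untreated WT cells, so their plain shares are lower limits. Both stayed below Ighd2-4 and Ighd2-8 with this restriction.

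All 6 members had a higher share of D joins in DoxIAA than in untreated 3CBEdel cells, where 75% of 12 D segments tested passed in either direction, 66.7% higher and 8.33% lower (Ighd2-3, Ighd2-4 and Ighd2-5 turned negative with median-of-ratios scaling). Ighd2-8 took 10.2%, 11.7% and 10.2% in DoxIAA 3CBEdel cells, against 2.88%, 3.28% and 3.15% in untreated ones, a log2 fold change of 1.80 ± 0.07 or 3.48-fold (limma). Ighd2-3 took 34.3%, 26.4% and 30.5% in DoxIAA 3CBEdel cells, against 21.7%, 15.2% and 17.8% in untreated ones, a change of 0.75 ± 0.10 or 1.68-fold (adjusted p = 1.43e-06, limma).

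All 6 members were also higher in DoxIAA than in untreated WT cells, where again 75% of D segments passed, 66.7% higher (Ighd2-3 and Ighd2-4 turned negative with median-of-ratios scaling). Ighd2-8 took 11.6%, 11.8% and 11.4% in DoxIAA WT cells, against 3.53%, 3.65% and 3.61% in untreated ones, a log2 change of 1.69 ± 0.06 or 3.23-fold (adjusted p = 2.53e-15, limma). Ighd2-3 took 28.8%, 28.03% and 29.7% in DoxIAA WT cells, against 16.0%, 15.8% and 16.8% in untreated ones, a change of 0.83 ± 0.10 or 1.78-fold (adjusted p = 1.4e-07, limma). The DoxIAA and untreated groups did not overlap for any member in either genotype, which was not counted over all D segments. This does not set the members apart, since the summed D segments on both sides of the array did not overlap either. Those between JH and the array took 13.8% in DoxIAA and 2.37% in untreated WT cells, and 9.23% and 1.93% in 3CBEdel cells. Those beyond the array took 34.7% and 73.5% in WT cells, and 39.3% and 72.7% in 3CBEdel cells.

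The changes of Ighd2-7, Ighd2-6, Ighd2-5 and Ighd2-4 were 1.85, 1.63, 1.44 and 1.29 in 3CBEdel cells, where that of Ighd2-7 lay above that of Ighd2-8, and 1.62, 1.61, 1.58 and 1.22 in WT cells. Ighd3-2 rose by 1.87 in 3CBEdel and 1.97 in WT cells, and Ighd4-1 by 2.32 and 2.65. Within the array, Ighd2-3 made up 59.1% in DoxIAA and 71.8% in untreated 3CBEdel cells, and 56.1% in DoxIAA and 67.2% in untreated WT cells. Ighd2-8 made up 20.9% in DoxIAA and 12.5% in untreated 3CBEdel cells, and 22.6% in DoxIAA and 15.0% in untreated WT cells. The member medians of the log2 change were 1.54 in 3CBEdel and 1.59 in WT cells, and those of all D segments tested 1.54 and 1.41. Ighd1-1 took 39.0% of D joins in DoxIAA and 72.5% in untreated 3CBEdel cells, and 34.3% in DoxIAA and 73.2% in untreated WT cells. Median-of-ratios scaling shifted the members by -1.44 in 3CBEdel and -1.45 in WT cells. Ighd2-3 then turned to -0.69 in 3CBEdel and -0.62 in WT cells, and Ighd2-4 to -0.14 and -0.24. Under this scaling 2 members in 3CBEdel and 3 in WT cells passed, counted in either direction. Ighd2-3 passed as lower (adjusted p = 8.89e-05 in 3CBEdel and 0.000251 in WT cells, limma). Ighd2-8 passed as higher, with 0.36 in 3CBEdel (adjusted p = 0.00282) and 0.24 in WT cells (adjusted p = 0.0494).

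**Figure D5:**
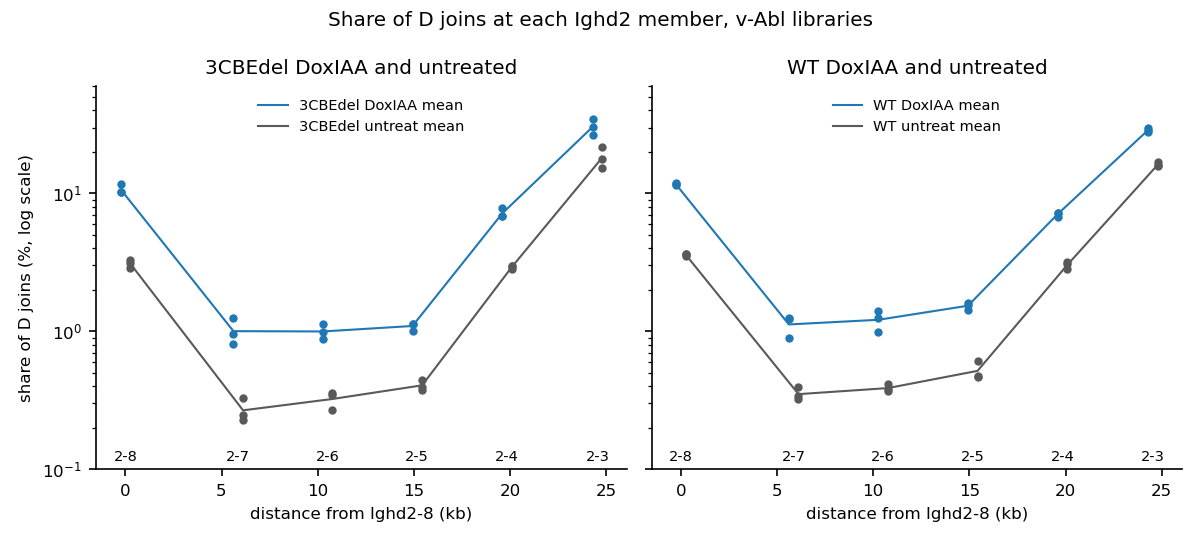
Share of D joins (%, log axis) of each v-Abl member by library, for DoxIAA and untreated cells of both genotypes; points are libraries. DoxIAA points lie above untreated points for all 6 members on this scale of shares, with Ighd2-3 highest and Ighd2-5, Ighd2-6 and Ighd2-7 lowest.

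Treatment effects did not differ detectably between the genotypes. For the difference of effects (3CBEdel minus WT), 0 members passed (limma, 0 at unadjusted p under 0.05, adjusted p = 0.769 to 0.937), where 8.33% of D segments passed, and the differences were 0.11 for Ighd2-8, 0.23 for Ighd2-7, 0.02 for Ighd2-6, -0.14 for Ighd2-5, 0.07 for Ighd2-4 and -0.09 for Ighd2-3 on the log2 scale. Ighd4-1 passed with -0.33, and Ighd3-2 (-0.10) and Ighd1-1 (0.19) did not. Without untreated 3CBEdel replicate 2, Ighd2-3 passed with -0.22 (adjusted p = 0.0366).

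Without treatment, Ighd2-8 and Ighd2-5 were lower in 3CBEdel than in WT cells, where 25% of D segments passed, all lower (4 members at unadjusted p under 0.05). Ighd2-8 took 2.88%, 3.28% and 3.15% in 3CBEdel cells, against 3.53%, 3.65% and 3.61% in WT cells, without overlap. The changes were -0.22 ± 0.06 for Ighd2-8 (adjusted p = 0.0201, limma) and -0.35 ± 0.12 for Ighd2-5 (adjusted p = 0.0435). Those of Ighd2-7, Ighd2-6, Ighd2-4 and Ighd2-3, which did not pass, were -0.37, -0.30, -0.05 and 0.16. Ighd4-1 passed with -0.26, where median-of-ratios scaling shifted the members by 0.26, and Ighd3-2 (-0.40) and Ighd1-1 (-0.02) did not pass. With the replicate number as a block 3 members passed, Ighd2-3 among them with 0.16 (adjusted p = 0.0168), with the run as a block 0 passed, and with the median-of-ratios scaling Ighd2-8 turned to 0.04. Ighd2-8 was lost without WT replicate 2, WT replicate 3 or 3CBEdel replicate 1, Ighd2-5 without WT replicate 1, WT replicate 2, 3CBEdel replicate 1 or 3CBEdel replicate 2, and without 3CBEdel replicate 2 Ighd2-3 was higher by 0.29 (adjusted p = 6.21e-06). With DoxIAA, 0 members passed between 3CBEdel and WT cells (limma, 1 at unadjusted p under 0.05), where 16.7% of D segments passed, and the changes lay between -0.49 (Ighd2-5) and 0.07 (Ighd2-3), with -0.11 for Ighd2-8, -0.14 for Ighd2-7, -0.28 for Ighd2-6 and 0.03 for Ighd2-4. Ighd4-1 was lower (-0.60), Ighd1-1 higher (0.18), and Ighd3-2 did not pass (-0.50).

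The array took 54.1%, 49.2% and 50.8% of D joins in DoxIAA 3CBEdel cells, against 28.3%, 22.5% and 24.99% in untreated ones, and 51.8%, 50.3% and 52.0% in DoxIAA WT cells, against 24.0%, 23.4% and 24.7% in untreated ones. With treatment permuted within genotype, the mean effect of 26.7 points had an exact two-sided p of 0.005, the smallest of the 400 arrangements, and the effects in 3CBEdel and WT cells differed by -1.22 points (exact p = 0.605). DoxIAA joins lay nearer to JH, at a mean distance from Ighd2-8 of 17.9 ± 0.815 kb in DoxIAA and 20.4 ± 0.721 kb in untreated 3CBEdel cells, and 17.3 ± 0.183 and 19.6 ± 0.0986 kb in WT cells (exact p = 0.005 within genotype).

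Per 100000 junctions all 6 members also rose with DoxIAA, a direction that turned for 4 in 3CBEdel and for all 6 in WT cells with median-of-ratios scaling. The log2 changes were 0.67 to 1.79 in 3CBEdel cells, where 73.6% of 72 segments were called higher with a median of 3.74 over all of them, and 0.71 to 1.57 in WT cells, where 77.8% were called higher with a median of 4.89. Under that scaling Ighd2-6, Ighd2-5, Ighd2-4 and Ighd2-3 had -0.13, -0.31, -0.45 and -0.998 in 3CBEdel cells, and the WT values ran from -0.49 (Ighd2-8) to -1.35 (Ighd2-3), a shift of -1.67 and -2.06 in 3CBEdel and WT cells. Between the genotypes 0 members passed on this scale without treatment (limma, 2 at unadjusted p under 0.05, where 2.78% of segments passed, and 2 members passed without 3CBEdel replicate 2), with DoxIAA (1 at unadjusted p, where 1.39% passed) or in the difference of effects (0 at unadjusted p, where 0% passed).

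Inside V joins the array made up 61.1%, 43.9% and 61.0% of the D read in DoxIAA 3CBEdel cells, against 42.2%, 36.5% and 49.95% in untreated ones, and 59.5%, 63.6% and 54.5% in DoxIAA WT cells, against 48.2%, 47.8% and 50.4% in untreated ones. The 3CBEdel groups overlapped, and over both genotypes the mean difference was 11.4 points (exact p = 0.015). V joins were few here, 794 to 3380 per library. Ighd2-3 led with 37.4% in DoxIAA and 27.7% in untreated 3CBEdel cells and 35.4% in DoxIAA and 24.9% in untreated WT cells. The D shared by Ighd2-5 and Ighd2-6 made up 5.31% of the D inside V joins in DoxIAA and 5.65% in untreated WT cells, beside 2.74% and 0.902% of the D joins.

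The v-Abl joins lost few bases. Bases lost, counted to the junction in the same way, averaged 1.34 in DoxIAA and 1.503 in untreated 3CBEdel cells and 1.32 and 1.499 in WT cells (exact p = 0.005 within genotype). The whole D was lost in 0.216% of array joins in DoxIAA and 0.363% in untreated 3CBEdel cells and in 0.240% in DoxIAA and 0.357% in untreated WT cells. Inserted bases were found in 26.8% to 28.3% of joins and overlapping ends in 55.0% to 56.5%, against the 89.0% to 89.5% and 5.47% to 6.08% of bone marrow, in which strain and cell source differ too. Inversional joins made up 0.0713% in DoxIAA and 0.0564% in untreated 3CBEdel cells and 0.125% in DoxIAA and 0.0290% in untreated WT cells (exact p = 0.035 within genotype).

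As a description, the segments whose level followed the summed members most closely were V segments. By Pearson's r of log2(junctions per 100000 + 1) these were Ighv1-47 (0.938), Ighv9-3 (0.930) and Ighv2-6-8 (0.916) over the 18 bone marrow libraries, and Ighv1-82 (0.976), Ighv6-3 (0.972) and Ighv1-58 (0.966) over the 12 v-Abl libraries. The points share libraries, depth and the groups described above.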

How the data were processed

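The authors' deposited files list 1 row per read with a bait-prey junction, with alignment positions and the read sequence, and their unit is neither a count table nor a normalised value: the counts used here were made by tabulating these rows. Reads had been aligned with Bowtie2 (version not given in the sources used here), and mm9 is named, per the submitters' processing notes; bone marrow reads lie on a target that joins 129 sequence to mm9, per the file contents, and v-Abl reads on mm9. A join was given to a segment within 100 bp of its start. The mapping quality and duplicate columns hold 0 in all 2074993 rows, so neither could be used.

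Segments with at least 10 junctions in 3 libraries were tested with limma voom (limma 3.58.1, R 4.3.3) in one fit for 18 bone marrow and one for 12 v-Abl libraries, with D joins or all junctions as library size and Benjamini-Hochberg adjustment over all segments tested. Single values were tested with exact permutation tests, or 100000 draws over the 6 genotypes (scipy 1.17.1, Python 3.11.15). Bone marrow members were named by position and matched to mm9 members with BLAST+ 2.17.0. Tested on simulated data, the D fits recovered most changed segments, called none where nothing had been changed, and also called most unchanged segments where others had been changed, since shares have a fixed sum. Replicate numbers paired the libraries (every correlation of deviations over 0.1) only for CBE2inv/inv against CBE2-/- (lowest 0.283) and untreated 3CBEdel against WT cells (lowest 0.840), which comes from the data and not from the labels. Every member is named in every comparison of shares of D joins, with Ighd4-1, Ighd3-2 and Ighd1-1 beside them. The members, lists and tests were chosen with earlier results of these data known. PCR reads are not independent molecules.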

Additional observations from a re-analysis of the deposited data

How the results depend on the processing

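Leaving aside single libraries left out, the named members gave 1661 values with the same call and direction, 85 weaker, 23 stronger and 25 reversed, and all reversals came from median-of-ratios scaling. By share of D joins they were -0.12 for m1 in CBE1&2-/- against WT, -0.69 and -0.62 for Ighd2-3 and -0.14 and -0.24 for Ighd2-4 with DoxIAA in 3CBEdel and WT cells, -0.0021 for Ighd2-5 in 3CBEdel cells, and 0.040 for Ighd2-8 in untreated 3CBEdel against WT cells. Over all junctions they were 0.485 and 0.28 for m6 and m8 in CBE1&2-/- against WT, 0.078 for m6 in CBE1-/- against WT, 0.0020 for m4 in CBE2-/- against WT, and 0.35, 0.032, 0.41 and 0.34 for m1, m5, m6 and m8 in CBE1&2-/- against CBE1-/-. With DoxIAA they were -0.13, -0.31, -0.45 and -0.998 for Ighd2-6 to Ighd2-3 in 3CBEdel cells, and -0.49, -0.55, -0.56, -0.60, -0.96 and -1.35 for Ighd2-8 to Ighd2-3 in WT cells. Under it the members called over all junctions were 3 in CBE1&2-/- against WT, 2 with DoxIAA in 3CBEdel cells, and 0 in CBE1&2-/- and CBE1inv/inv against CBE1-/- and in CBE1-/-, CBE1inv/inv, CBE2-/- and CBE2inv/inv against WT; by share of D joins they were 2 and 3 with DoxIAA in 3CBEdel and WT cells, 2 and 0 in 3CBEdel against WT cells with and without DoxIAA, 0, 0 and 1 in CBE1inv/inv, CBE2-/- and CBE2inv/inv against WT and 1 in CBE2inv/inv against CBE2-/-. The members called also moved to 0 and 1 in CBE2inv/inv and CBE2-/- against WT with V plus D joins as size; to 1 in each of 5 comparisons with limma trend; to 1 on both scales in untreated 3CBEdel against WT cells without a minimum of junctions; to 2 (all junctions) and 4 (share) there and 1 with DoxIAA with repeated reads counted once; and to 4 in CBE2inv/inv (all junctions), 0 in CBE1inv/inv (share) and 1 in DoxIAA 3CBEdel cells with reads reaching 150 bp. The replicate block gave 3 members in CBE1inv/inv over all junctions and 1 in DoxIAA 3CBEdel against WT cells by share, where the number is not known to pair libraries, and ended the calls of m8 in CBE1inv/inv against WT (adjusted p = 0.0563) and of m9 in CBE1inv/inv against CBE1-/- (adjusted p = 0.0507); it changed no other share call beyond Ighd2-3 above. The run block gave 1 and 0 members in 3CBEdel against WT cells with and without DoxIAA.

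With a D run of at least 10 bases, the array share inside V joins differed from WT by 16.5 points in CBE1&2-/-, 6.06 in CBE1-/-, 6.23 in CBE1inv/inv, 11.3 in CBE2-/- and 11.1 in CBE2inv/inv, and by 10.4 between CBE1&2-/- and CBE1-/-. With repeated reads counted once, the DoxIAA effect on the array share was 23.15 points in 3CBEdel and 23.0 in WT cells (29.6 in WT with reads reaching 150 bp), on the distance -1.865 kb in WT, and in this order on bases lost -0.285 and -0.301, on inserted bases -2.37 and -3.20 points, on overlapping ends 3.74 and 4.41, and on whole D lost -0.246 and -0.211; untreated 3CBEdel against WT cells gave -0.0525 bases lost and -2.35 points inserted, and CBE2inv/inv against CBE2-/- 0.0805 points of overlapping ends. With joins that keep part of the D the distance differed by 0.320 kb between CBE1&2-/- and WT and by -0.0245 between CBE1&2-/- and CBE1-/-. Within 40 bp, bases lost differed by 2.43 and 1.73 and whole D lost by 9.87 and 7.24 points in these comparisons, and bases lost by 0.289 between the CBE2 alleles. The v-Abl libraries came from sequencing run 4, except replicate 1 of both WT groups (run 3) and replicate 3 of both 3CBEdel groups (run 5). Values within run 3 or run 5 therefore set a single library against another. Within run 3, DoxIAA in WT cells gave 0.210 points inversional, -0.241 bases lost, 0.576 points overlapping and -0.236 whole D lost. Inversional joins gave 0.0399 with DoxIAA in 3CBEdel cells and 0.0080 in untreated 3CBEdel against WT cells within run 4. With DoxIAA in 3CBEdel cells they gave -0.0351 within run 5. The cause of these shifts was not tested. The alternatives on reads reaching 150 bp, on joins keeping part of the D and on 40 bp were added after the data were seen, and that on mapping quality was not run.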
